A study of Mus musculus with 10 samples.

Results

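The imprinted Dlk1-Dio3 cluster of mouse chromosome 12 was followed through all array features whose gene symbol is Dlk1, Meg3, Rtl1, Rian, Mirg or Dio3. Of these 6 genes, 5 had a feature, and together they held 8 of the 62976 features on the array. Meg3 had 3 features, Dlk1 had 2, and Mirg, Rtl1 and Dio3 had 1 each. The expression of Rian was not analysed here.

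Imprinted genes are transcribed from only 1 of the parental copies. In this cluster Dlk1, Rtl1 and Dio3 are protein-coding and are expressed from the paternal copy, whereas Meg3, Rian and Mirg are noncoding and are expressed from the maternal copy. A region between Dlk1 and Meg3 that is methylated on the paternal copy sets this pattern. The genes are most active in the embryo and placenta. The maternally expressed noncoding genes of the cluster are known for being silenced in some lines of reprogrammed stem cells. The arrays measured total RNA and did not separate the parental copies.

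Gene expression was measured on 10 one-colour arrays. All cells came from a congenic background homozygous for R26-M2rtTA, a doxycycline-responsive activator expressed from the Rosa26 locus. The ieSCs, embryonic Sertoli-like cells made from fibroblasts, carried the transgenes Nr5a1, Wt1, Dmrt1, Gata4 and Sox9, and the mouse embryonic fibroblasts (MEFs) used as the control carried none. The ieSCs derived from MEFs and those derived from female tail tip fibroblasts (TTFs) had each 4 arrays under 2 source names, and the MEFs had 2 arrays under 1 name. Before RNA extraction all cells were grown without doxycycline for 2 weeks in F12/DMEM at 20% O2 and 5% CO2. The labels do not say whether arrays of 1 name came from separate cultures, so p-values measure the spread between these arrays, which may be technical. No array of the starting TTFs was analysed here, so in the comparison of TTF-derived ieSCs with MEFs the conversion and the cell of origin cannot be told apart. Arrays are named below by group, name number and a letter (1a, 1b, 2a, 2b), and the MEF arrays by a letter alone.

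Before the values, the promoter sequences of 4 members are shown, because these genes moved together and because CG pairs are the sites at which imprinted copies are methylated. Each is the 250 bases before the annotated start, 5′ to 3′ on the plus strand, from RefSeq on build GRCm38.p6, with CG pairs in capitals. They lie at chr12:109540746-109540995 (Meg3, first start), chr12:109734731-109734980 (Mirg), chr12:109452573-109452822 (Dlk1) and chr12:110278980-110279229 (Dio3).
Meg3: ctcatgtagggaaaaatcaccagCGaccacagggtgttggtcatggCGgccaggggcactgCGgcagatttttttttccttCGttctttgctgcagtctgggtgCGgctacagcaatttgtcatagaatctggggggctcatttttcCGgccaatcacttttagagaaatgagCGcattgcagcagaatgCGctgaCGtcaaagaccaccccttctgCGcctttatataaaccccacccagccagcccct
Mirg: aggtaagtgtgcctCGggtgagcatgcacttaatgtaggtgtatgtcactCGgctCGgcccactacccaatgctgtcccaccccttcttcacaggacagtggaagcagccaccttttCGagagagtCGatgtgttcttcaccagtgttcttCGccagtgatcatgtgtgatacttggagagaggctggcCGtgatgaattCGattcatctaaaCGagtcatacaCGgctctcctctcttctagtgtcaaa
Dlk1: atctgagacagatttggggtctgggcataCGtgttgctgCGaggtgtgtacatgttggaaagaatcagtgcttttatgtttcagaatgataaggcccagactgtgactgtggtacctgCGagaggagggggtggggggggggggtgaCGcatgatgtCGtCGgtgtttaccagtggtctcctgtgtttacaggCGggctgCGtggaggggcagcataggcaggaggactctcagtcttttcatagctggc
Dio3: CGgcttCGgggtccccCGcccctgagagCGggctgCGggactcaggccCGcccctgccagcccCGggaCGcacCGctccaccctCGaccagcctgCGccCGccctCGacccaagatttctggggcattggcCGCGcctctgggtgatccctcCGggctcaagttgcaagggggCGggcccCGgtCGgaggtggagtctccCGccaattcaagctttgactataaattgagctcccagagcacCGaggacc

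The Dio3 promoter held 21 CG pairs, the Meg3 and Mirg promoters 10 each, and the Dlk1 promoter 8, against a median of 6 over 32851 mouse promoters of the same length. Of all promoters 83.7% had fewer pairs than Dio3, 62.2% fewer than Meg3 and Mirg, and 57.0% fewer than Dlk1. The stretches before the second Meg3 start and the Rian start, not shown, held 0 CG pairs and none of the 6 motifs below. The Mirg stretch contains the mature sequences of miR-668-5p, miR-668-3p and miR-485-3p. It is called a promoter only by its place before the annotated start, and its activity was not tested. The motifs described here were searched on both strands, with positions counted to the leftmost base. The Meg3 promoter held the TATA box TATAAA on both strands, overlapping, at 25 and 29 bases before the start. It held the cyclic AMP response element TGACGTCA at 57 bases and the motif TGCCGC at 190 bases. TATAAA occurred in 12.4% of all promoters, TGACGTCA in 1.55% and TGCCGC, the core of the motif of the imprinting factor ZFP57, in 8.68%. The Dio3 promoter held GGGCGG 4 times, a motif present in 32.7% of promoters, and TATAAA once. The motif CCAAT, present in 33.8% of promoters, occurred in the Meg3, Mirg and Dio3 promoters. The E-box CACGTG, present in 6.02% of promoters, occurred in none of the 4, and the Dlk1 promoter held none of the 6 motifs.

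RefSeq places 103 genes from Dlk1 to Dio3, of which 61 are miRNAs, 19 are small nucleolar RNAs and 16 are long noncoding RNAs. Only 6 of the 103 had a feature. The hairpins of 10 miRNAs lie within the span of Mirg, whose transcript is their host. Mature sequences of some of them are given with the seed (bases 2 to 8) in capitals, to show what the Mirg feature stands beside. The arrays did not measure these miRNAs. Among the 113 mature miRNAs of the interval there were 104 different seeds. miR-410-5p shares its seed with miR-494-5p, which lies outside Mirg, and miR-453 shares its seed with miR-496a-5p.
mmu-miR-410-5p: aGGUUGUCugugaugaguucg
mmu-miR-494-5p: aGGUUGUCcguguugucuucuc
mmu-miR-453: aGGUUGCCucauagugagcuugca
mmu-miR-496a-5p: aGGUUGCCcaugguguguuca
mmu-miR-410-3p: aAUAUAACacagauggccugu

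Of the 8 features, 7 were far lower in the ieSCs than in the MEFs, in both kinds of ieSC. All 4 features of maternally expressed genes fell, with log2 differences from -13.03 to -7.02, and so did 3 of the 4 features of paternally expressed genes. The exception was Rtl1, which was low in every group. None of the 8 passed the test between TTF-derived and MEF-derived ieSCs. Levels are the deposited log2 values, and each difference is taken within a feature. A change was called where the adjusted p (limma, Benjamini-Hochberg over the features tested) was under 0.05.

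**Figure D1:**
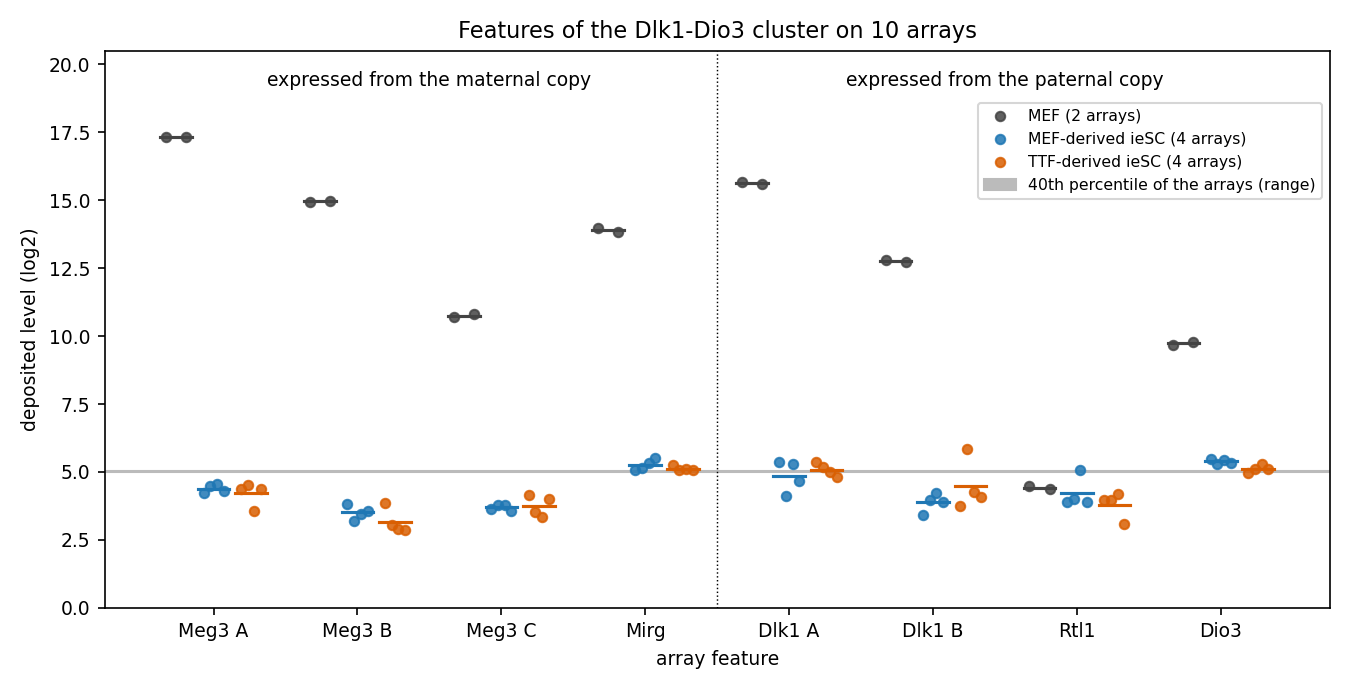
Deposited log2 level of each of the 8 cluster features (horizontal axis) on the 10 arrays. Points are arrays, short lines are group means, and the grey band is the range of the 40th percentile of the arrays. In 7 features both MEF arrays stand above all 8 ieSC arrays, and in Rtl1 both MEF arrays lie within the range of the ieSC arrays.

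Meg3 encodes a long noncoding RNA and gave the clearest values. The feature with the highest mean, called Meg3 A here (number 2661 in the deposited table), was at 17.34 and 17.32 on the MEF arrays, above 99.3% of all features. On the MEF-derived ieSC arrays 1a, 1b, 2a and 2b it was at 4.23, 4.47, 4.54 and 4.31. On the TTF-derived arrays, in the same order, it was at 4.39, 4.52, 3.55 and 4.38. Every ieSC array lay at least 12.78 below the lower MEF array. The difference between the mean of the ieSC groups and MEF was -13.03 ± 0.31 (SE, log2, adjusted p = 3.86e-09 by limma). Of all 62976 features, Meg3 A had the most negative difference in the mean of the ieSC groups, also with low values raised to the floor described below. This gene's fall was known when the cluster was chosen for study.

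The other Meg3 features gave the same direction at other sizes. Meg3 B (number 16775) was at 14.93 and 14.98 in MEFs, at 3.83, 3.21, 3.47 and 3.55 in MEF-derived ieSCs, and at 3.86, 3.05, 2.90 and 2.86 in TTF-derived ieSCs. Its difference was -11.61 ± 0.36 (adjusted p = 1.65e-08). Meg3 C (number 18653) was at 10.69 and 10.80 in MEFs. It was at 3.65, 3.80, 3.79 and 3.55 in MEF-derived ieSCs and at 4.16, 3.51, 3.35 and 4.02 in TTF-derived ieSCs. Its difference was -7.02 ± 0.31 (adjusted p = 1.30e-07). The falls of the 3 features thus differed in size, and in none of them did an ieSC value reach a MEF value. On all 8 ieSC arrays the 3 Meg3 features lay under the array's 40th percentile, a level used here as a floor because no detection flags came with the values. With values under that percentile set to it, the differences of Meg3 A, B and C were -12.32, -9.95 and -5.74. These sizes follow the MEF levels of the features, since every ieSC value was set to the floor.

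Mirg, the noncoding host of miRNAs farther along the cluster, fell from 13.96 and 13.84 in MEFs. On the MEF-derived ieSC arrays it was at 5.06, 5.15, 5.33 and 5.51, and on the TTF-derived arrays at 5.26, 5.06, 5.10 and 5.08. Its difference was -8.71 ± 0.15 (adjusted p = 1.13e-09), and the nearest ieSC array lay 8.33 below the lower MEF array. Its ieSC values were just above the 40th percentile, by 0.19 on average. They varied little, with an SD of 0.16 over the 8 ieSC arrays against 0.32 for Meg3 A.

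Dlk1 encodes a transmembrane protein with EGF-like repeats that holds back adipocyte differentiation. Its feature with the higher mean, Dlk1 A (number 54779), was at 15.66 and 15.60 in MEFs, above 97.5% or more of all features. On the MEF-derived ieSC arrays it was at 5.36, 4.12, 5.29 and 4.66, and on the TTF-derived arrays at 5.36, 5.18, 4.99 and 4.83. The groups were 10.24 apart at their closest arrays, and the difference was -10.66 ± 0.45 (adjusted p = 9.46e-08). Dlk1 B (number 45274) was at 12.79 and 12.71 in MEFs. It was at 3.41, 3.97, 4.23 and 3.90 in MEF-derived ieSCs and at 3.74, 5.84, 4.26 and 4.09 in TTF-derived ieSCs. The 1 value of 5.84, on TTF-derived array 1b, stood above the other 7 ieSC values of this feature, whereas Dlk1 A on the same array, at 5.18, lay within the range of the others. The difference of Dlk1 B was -8.57 ± 0.70 (adjusted p = 7.46e-06), with the largest error of the features that fell. It exceeded the 40th percentile on 1 of the 8 ieSC arrays, and with values floored there the difference was -7.64.

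Dio3, the deiodinase that inactivates thyroid hormone, lies at the far end of the cluster. Its feature was at 9.69 and 9.79 in MEFs, above 75.5% or more of all features. On the MEF-derived ieSC arrays it was at 5.49, 5.28, 5.45 and 5.32, and on the TTF-derived arrays at 4.97, 5.10, 5.28 and 5.10. The difference was -4.49 ± 0.14 (adjusted p = 1.68e-08), the smallest of the 7 falls, and the groups were 4.20 apart at their closest arrays. Across all features 1.78% were lower by at least 4 log2 units.

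Rtl1, a protein-coding gene derived from a retrotransposon and needed in the placenta, was low in every group. Its feature was at 4.47 and 4.37 in MEFs, at 3.90, 4.02, 5.07 and 3.90 in MEF-derived ieSCs and at 3.97, 3.97, 4.18 and 3.09 in TTF-derived ieSCs. Only the value of 5.07 exceeded the 40th percentile of its array. The MEF-derived values lay on either side of the MEF values, and all TTF-derived values lay below them. The difference was -0.41 ± 0.44 (adjusted p = 0.588, 95% interval -1.40 to 0.58) in a fit of all features. Since the MEF values already lay under the floor, a fall was not detectable for this gene.

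To enter the filtered test, a feature had to exceed the array's 40th percentile on 2 or more arrays. The Meg3 features passed through the MEF arrays alone, and Dlk1 B through them and 1 ieSC array, so counts over members are taken from a fit of all features with no filter. In that limma fit the differences of Meg3 A, B and C were unchanged, with adjusted p = 3.11e-09, 1.11e-08 and 6.52e-08. Dlk1 B there had adjusted p = 3.32e-06. There, 7 of 8 features were lower and 0 were higher in the mean of the ieSC groups against MEF, beside 13.9% of all features called lower. The count was also 7 lower and 0 higher for MEF-derived ieSCs alone (background 14.6%) and for TTF-derived ieSCs alone (background 12.4%). The median difference was -10.16 over the 4 maternal features and -6.53 over the 4 paternal ones, where the median over all features was 0.09. These medians rest on 2 and 3 genes, and features of 1 gene are not independent. The paternal features include Rtl1, for which a fall was not detectable. The 3 paternal features that passed the filter had a median of -8.57, which is the value of Dlk1 B. Since Dlk1 B needed the MEF arrays, where it is high, to pass, this median is only a description. In a bulk sample, fewer cells of a type and less RNA per cell cannot be told apart.

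The fall was of like size in the ieSCs of either origin, which share the same MEF arrays as control. Meg3 A differed from MEF by -12.94 ± 0.34 in ieSCs made from MEFs and by -13.12 ± 0.34 in those made from TTFs. For Mirg the differences were -8.64 ± 0.16 and -8.78 ± 0.16, for Dlk1 A -10.77 ± 0.49 and -10.54 ± 0.49, and for Dio3 -4.35 ± 0.15 and -4.63 ± 0.15. The direct comparison of TTF-derived with MEF-derived ieSCs called 0 of the 8 features, beside 22.6% of all features called in either direction. Its 95% intervals were -0.80 to 0.45 for Meg3 A, -0.44 to 0.16 for Mirg, -0.68 to 1.14 for Dlk1 A and -0.80 to 2.02 for Dlk1 B. Dio3 came closest, lower in TTF-derived ieSCs by -0.27 ± 0.12 (interval -0.55 to 0.00, adjusted p = 0.123). With the arrays treated as independent this difference was called (adjusted p = 0.0262). The lowest MEF-derived array and the highest TTF-derived array were both at 5.28. Most of these ieSC levels lie near or under the floor.

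**Figure D2:**
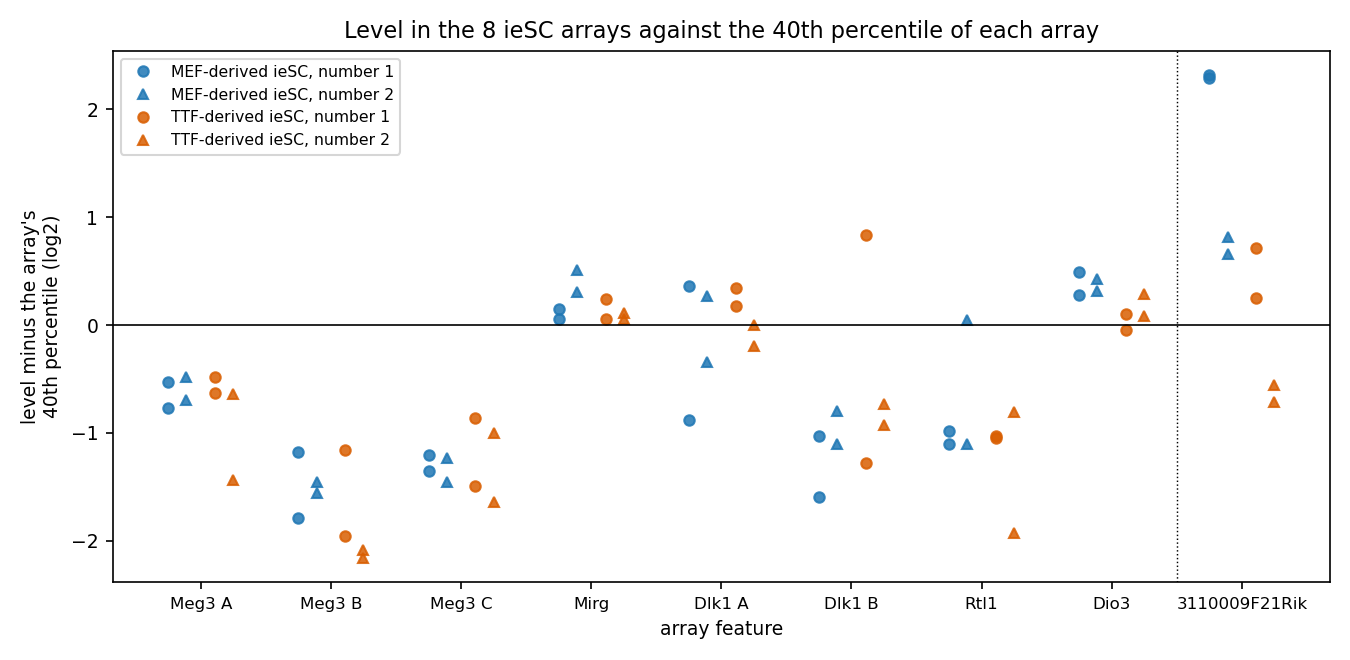
Log2 level minus the 40th percentile of the same array for the 8 cluster features and 3110009F21Rik, on the 8 ieSC arrays only. Colour gives the cell of origin and symbol the name number. The Meg3 features lie below 0 on every array, Mirg lies just above 0, and 3110009F21Rik reaches its highest values on the MEF-derived arrays of number 1.

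One other gene between Dlk1 and Dio3 had a feature. 3110009F21Rik, a long noncoding RNA gene between Mirg and Dio3 that is transcribed from the minus strand, is no member of the set above and moved the other way. It was at 3.05 and 3.35 in MEFs, under the 40th percentile. In MEF-derived ieSCs it was at 7.29, 7.32, 5.84 and 5.66, and in TTF-derived ieSCs at 5.73, 5.25, 4.43 and 4.31. All 8 ieSC arrays stood above both MEF arrays, and both arrays of number 1 stood above those of number 2 in either group. It passed the filter through ieSC arrays alone, where it is high. It rose by 2.53 ± 0.54 (adjusted p = 0.00363), and by 2.53 ± 0.53 (adjusted p = 0.00485) in the fit of all features. With the arrays of each name averaged first the same value had adjusted p = 0.0752, and with values floored at the 40th percentile the difference was 0.88 (adjusted p = 0.157). It was lower in TTF-derived than in MEF-derived ieSCs by -1.60 ± 0.48 (adjusted p = 0.0286), a call also lost with averaged arrays (adjusted p = 0.188). Without the MEF-derived ieSCs of number 1 that difference was -0.82 (adjusted p = 0.186), and without the TTF-derived ieSCs of number 2 it was -1.04 (adjusted p = 0.196). Leaving out a single ieSC array ended the call for 5 of the 8 arrays, with adjusted p from 0.0509 to 0.0579.

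Beyond the ends of the cluster the large falls stopped after 1 gene on the Dlk1 side and at Dio3 on the other. The comparison used the 10 nearest protein-coding genes with a feature above the filter on each side, in RefSeq order. Begain, which encodes a guanylate kinase-associated protein and is the next such gene before Dlk1, was at 12.19 and 12.21 in MEFs, from 4.53 to 5.93 in MEF-derived ieSCs and from 4.21 to 4.43 in TTF-derived ieSCs. It fell by 7.46 log2 units (-7.46 ± 0.44, adjusted p = 7.89e-07). The next gene outward, Wdr25, was at 7.58 and 7.72 in MEFs and from 8.18 to 8.61 in ieSCs, and rose by 0.77 ± 0.12 (adjusted p = 6.37e-04). Hhipl1, the outermost of the 10, fell (-0.98 ± 0.15, adjusted p = 6.00e-04). Of the 10 genes before Dlk1, 4 were lower and 3 higher, with a median difference of 0.11. Over 1 such feature for each of 16650 genes, 24.5% were lower and 27.2% higher.

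After Dio3, in the mean of the ieSC groups, none of 10 genes was lower and 3 were higher, with differences from -0.21 to 0.97 and a median of 0.16. The 3 were Hsp90aa1, a cytosolic chaperone (0.97 ± 0.12, adjusted p = 1.29e-04), the kinase gene Mok (0.75 ± 0.12, adjusted p = 5.21e-04) and the zinc finger gene Zfp839 (0.40 ± 0.12, adjusted p = 0.0245). Mok rose in MEF-derived ieSCs (1.22 ± 0.13, adjusted p = 3.60e-05) and had 0.28 ± 0.13 (adjusted p = 0.112) in TTF-derived ieSCs, and the kinds differed by -0.94 (adjusted p = 1.21e-04). Zfp839 lost its call with averaged arrays (adjusted p = 0.0935), without MEF array b (adjusted p = 0.0832) and with arrays scaled to their brightest features (0.27, adjusted p = 0.123). Ppp2r5c, a phosphatase subunit gene and the first coding gene after Dio3, is named here after its values were seen. It was at 12.91 and 13.02 in MEFs and from 12.35 to 13.04 in ieSCs (-0.21 ± 0.11, adjusted p = 0.143), and with arrays scaled to their brightest features it was called lower (-0.34, adjusted p = 0.0223). It was also called lower in TTF-derived ieSCs, against MEF (-0.47 ± 0.12, adjusted p = 0.01) and against MEF-derived ieSCs (-0.51 ± 0.10, adjusted p = 0.0027).

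**Figure D3:**
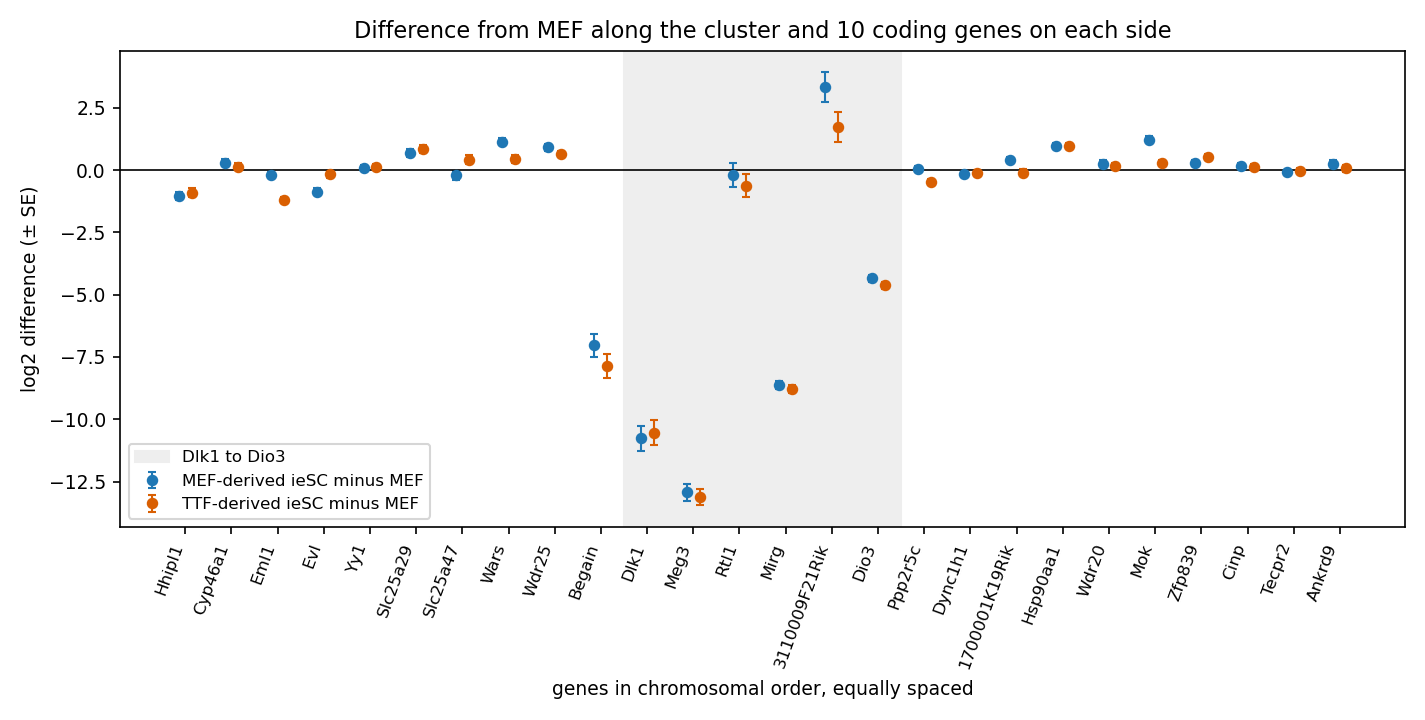
Log2 difference from MEF, with its standard error, for MEF-derived and TTF-derived ieSCs, over genes in chromosomal order at equal spacing. The shaded genes run from Dlk1 to Dio3. Begain and 4 of the 5 members shown lie between -4.35 and -13.12, Rtl1 lies near 0, 3110009F21Rik lies above 0, and the other flanking genes lie between -1.19 and 1.22.

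Genes that followed the cluster across the arrays were looked for by Pearson correlation over the 10 arrays, with 1 feature per gene. The 5 genes most like Meg3 A were Amer2, Slc1a6, Laptm5, Ebi3 and Cdh3, with r from 0.99851 to 0.99931. Those most like Dlk1 A were Tnfsf11, Efs, Rgs17, Hpgds and Tlr13, with r from 0.99806 to 0.99883. In each of the 10 the MEF mean stood above the highest ieSC value. The arrays fall into 2 MEF and 8 ieSC arrays that stand far apart, and 310 of 16649 genes had r above 0.99 with Meg3 A. These correlations describe that split and show no finer pattern.

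Imprinted genes at other sites fell as well, but not all and not alike in both kinds of ieSC. These lists, like the others below, were read with 1 feature per gene in the fit of all features, where 19.7% of 20738 genes were lower and 21.5% higher, with a median of 0.08. Of 12 maternally expressed imprinted genes elsewhere, 7 were lower and 1 higher, with a median of -0.84. Cdkn1c, an inhibitor of cyclin-dependent kinases, fell from a mean of 14.41 in MEFs to 4.43 and 4.08 in MEF-derived and TTF-derived ieSCs (-10.15 ± 0.19, adjusted p = 1.91e-09), or by -9.40 with floored values. H19, a noncoding RNA, fell from 18.36 to 7.55 and 9.83 (-9.67 ± 0.44, adjusted p = 2.00e-07). Grb10, an adaptor that dampens growth factor signalling, was at 12.46 in MEFs and fell on average by -5.47 ± 0.23 (adjusted p = 1.33e-07), by -2.46 ± 0.25 in MEF-derived and by -8.47 ± 0.25 in TTF-derived ieSCs.

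Of 17 paternally expressed imprinted genes elsewhere, 11 were lower and 1 higher, with a median of -1.75. Ndn, which encodes necdin, fell from 12.41 to 7.06 and 6.83 (-5.46 ± 0.14, adjusted p = 1e-08), and Sgce, which encodes epsilon-sarcoglycan, from 13.74 to 5.52 and 5.64 (-8.16 ± 0.26, adjusted p = 2.71e-08). Mest fell from 15.87 to 12.88 and 4.48 (-7.19 ± 0.30, adjusted p = 1.16e-07), and its 12 features ranged from -7.28 to -4.07. Grb10 and Mest differed between the kinds of ieSC, being lower in TTF-derived cells by -6.01 (adjusted p = 1.38e-07) and -8.41 (adjusted p = 8.97e-08). H19 was higher in TTF-derived cells by 2.28 (adjusted p = 0.00242). In that comparison no cluster feature was called, with the intervals given above.

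**Figure D4:**
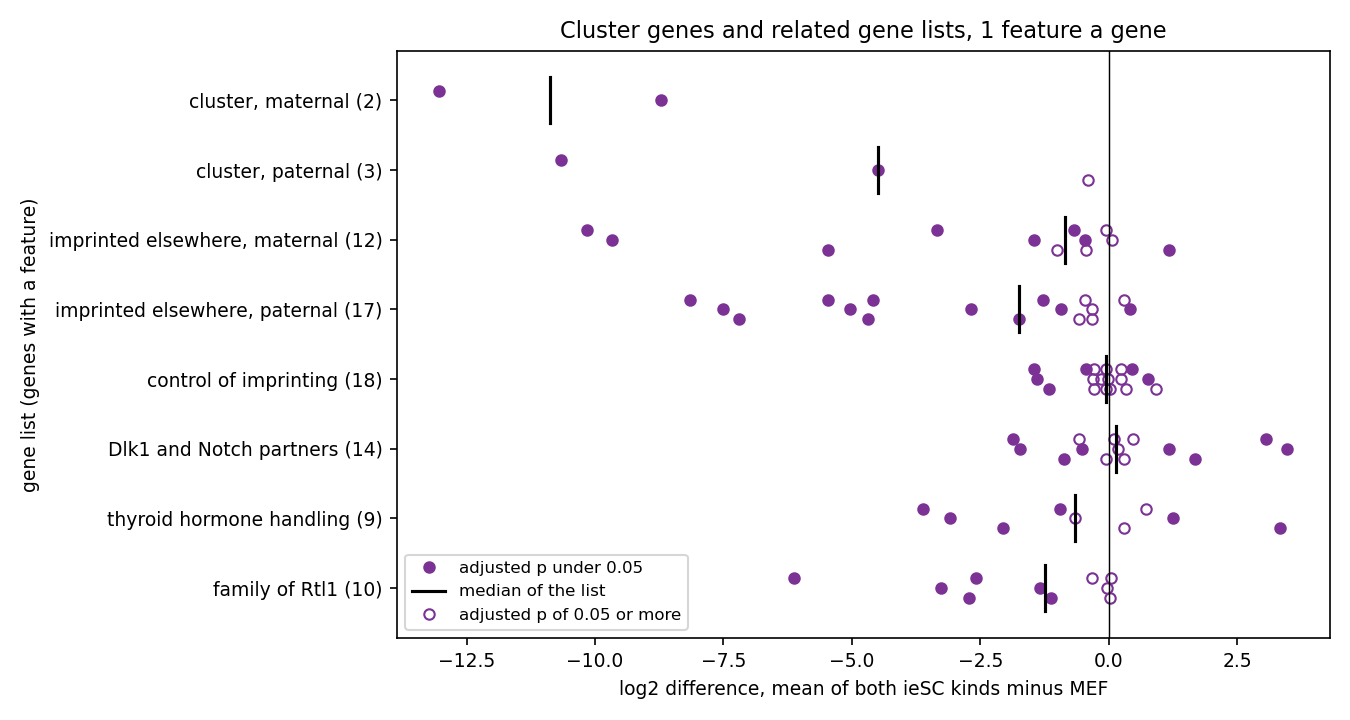
Log2 difference between the mean of the ieSC groups and MEF for the cluster genes and 6 related lists, with 1 feature per gene. Filled points had an adjusted p under 0.05, open points did not, and black lines are medians. The cluster genes other than Rtl1 lie from -4.49 to -13.03, and the list medians outside the cluster lie from -1.75 to 0.14.

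Genes that control methylation and imprinting were called in both directions. Of 18 listed, 2 were higher and 4 lower in the mean of the ieSC groups against MEF, with a median of -0.06. In MEF-derived ieSCs against MEF 1 was higher and 6 lower, beside 22.5% and 20.0% of all genes. In TTF-derived against MEF-derived ieSCs 7 were higher and 2 lower, beside 14.0% and 16.0% of all genes. Tet1, a dioxygenase that oxidises methylated cytosine, fell from 8.63 to 7.25 and 7.20 (-1.40 ± 0.17, adjusted p = 1.89e-04), whereas the related Tet3 rose from 7.96 to 8.98 and 8.46 (0.76 ± 0.14, adjusted p = 0.0024). Uhrf1, which brings the maintenance methyltransferase to replicating DNA, was at a mean of 12.11 in MEFs, of 8.74 after derivation from MEFs and of 12.54 after derivation from TTFs. Its mean difference was -1.46 ± 0.25 (adjusted p = 0.00161), its other feature gave -0.19, and the ieSC groups differed by 3.81 (adjusted p = 4.23e-06).

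Among 14 relatives of Dlk1 and members of the Notch pathway, 4 were higher and 4 lower, with a median of 0.14. The Notch ligand genes Jag2 and Dll1 rose, Jag2 from 4.75 to 7.46 and 8.15 (3.06 ± 0.20, adjusted p = 2.15e-06) and Dll1 from 6.34 to 10.10 and 9.54 (3.48 ± 0.37, adjusted p = 6.21e-05). The receptor gene Notch4 rose by 1.17 ± 0.12 (adjusted p = 4.89e-05).

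Of 9 genes that handle thyroid hormone beside Dio3, 2 were higher and 4 lower, with a median of -0.65. Thrb, a thyroid hormone receptor, fell from 8.13 to 4.25 and 5.85 (-3.08 ± 0.19, adjusted p = 1.82e-06). Slc16a10, a transporter of aromatic amino acids and thyroid hormone, fell from 6.99 to 3.49 and 3.28 (-3.61 ± 0.26, adjusted p = 5.26e-06), with -1.13 in its other feature. No ieSC array exceeded the 40th percentile for it, and with floored values its difference was -1.98. Hr, a corepressor that binds thyroid hormone receptors, rose from 8.31 to 11.38 and 11.91 (3.34 ± 0.22, adjusted p = 2.36e-06).

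Of 10 genes of the retrotransposon-derived family to which Rtl1 belongs, 6 were lower and 0 higher, with a median of -1.23. Rtl8b fell from 15.13 to 12.59 and 12.26 (-2.71 ± 0.23, adjusted p = 1.46e-05), and Rtl8c from 15.15 to 12.70 and 12.42 (-2.59 ± 0.23, adjusted p = 2.14e-05). The features of Rtl8c gave from -4.92 to -2.50, and near-identical Rtl8 copies may share signal. Rtl5 fell from 9.32 to 6.87 and 5.23 (-3.27 ± 0.30, adjusted p = 2.32e-05), with -0.18 in its other feature.

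The group labels were checked against markers. Of 16 Sertoli markers, 9 were higher and 4 lower in ieSCs, with Dhh rising by 7.23 ± 0.12 and Tesc by 7.38 ± 0.18 (adjusted p = 1.20e-09 and 6.33e-09), and Sox9, 1 of the transgenes, falling (-3.46 ± 0.16, adjusted p = 2.37e-07). The list includes 4 of the transgenes. Group means of the defining markers Amh and Fshr lay under the 40th percentile in all 3 groups. Fibroblast markers were lower for 10 of 12 genes, and their mean level over the list was from 15.46 to 15.50 on the MEF arrays, 8.71 to 9.03 on the MEF-derived and 8.94 to 10.19 on the TTF-derived ieSC arrays. Thy1 had -12.30 ± 0.22, Fap -9.19 ± 0.20 and Twist1 -8.47 ± 0.31 (adjusted p = 1.76e-09, 3.41e-09 and 5.72e-08). Fap and Twist1 lay under the 40th percentile on every ieSC array, and with floored values had -7.90 and -6.64. Other fibroblast markers stayed high in ieSCs. Col1a1 was at 17.34 in MEFs and at 17.03 and 16.74 in MEF-derived and TTF-derived ieSCs (-0.46 ± 0.13, adjusted p = 0.0223). Dcn was at 17.26, 17.72 and 18.70, and was called higher in TTF-derived ieSCs against MEF (1.44 ± 0.42, adjusted p = 0.0309).

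Markers of macrophages were present on the MEF arrays and fell with the cluster. All 10 listed were lower in ieSCs, and their mean level was from 11.53 to 11.54 on the MEF arrays, 6.09 to 6.30 on the MEF-derived and 5.91 to 6.03 on the TTF-derived ieSC arrays. C1qa, a complement subunit of macrophages, fell by 8.30 log2 units (-8.30 ± 0.18, adjusted p = 3.80e-09), Laptm5 had -7.24 ± 0.15 and Fcer1g -6.08 ± 0.14 (adjusted p = 3.37e-09 and 5.64e-09). C1qa and Laptm5 lay under the 40th percentile on every ieSC array, and with floored values had -7.30 and -6.14. The part of fibroblast and macrophage content in the fall of the cluster genes was not tested.

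Markers of 5 other cell types were read in the same way. Endothelial markers were higher for 1 and lower for 2 of 7, with Tek at 2.28 ± 0.42, Pecam1 at -0.77 ± 0.19 and Emcn at -0.73 ± 0.21. Tek had 0.68 ± 0.46 (adjusted p = 0.336) in MEF-derived and 3.87 ± 0.46 (adjusted p = 1.69e-04) in TTF-derived ieSCs. Emcn lay under the 40th percentile on all 10 arrays, so its value is no measured fall. Preadipocyte and adipocyte markers were higher for 1 and lower for 3 of 7, with Cebpa at -5.08 ± 0.33, Zfp423 at -1.30 ± 0.14, with -5.77 in another feature, and Fabp4 at -1.07 ± 0.24. Fabp4 had -2.02 ± 0.26 in MEF-derived and -0.12 ± 0.26 (adjusted p = 0.83) in TTF-derived ieSCs, and its call was lost with averaged arrays (adjusted p = 0.0915). Leydig markers were lower for 3 of 4, with Hsd3b1 at -6.03 ± 0.17, Cyp11a1 at -5.83 ± 0.43 and Star at -1.04 ± 0.18. Star had -0.54 ± 0.19 (adjusted p = 0.0658) in MEF-derived and -1.54 ± 0.19 (adjusted p = 2.49e-04) in TTF-derived ieSCs. Hsd3b1 and Cyp11a1 lay under the 40th percentile on every ieSC array, and with floored values had -5.15 and -4.43. Skeletal muscle markers were lower for 2 of 7, with Des at -3.06 ± 0.66 and Acta1 at -2.05 ± 0.38. Acta1 had -0.96 ± 0.42 (adjusted p = 0.118) in MEF-derived and -3.14 ± 0.42 (adjusted p = 3.33e-04) in TTF-derived ieSCs. Pluripotency markers were higher for 1 of 7, Dppa5a at 0.57 ± 0.18, and lower for 0. Dppa5a had 1.07 ± 0.19 in MEF-derived and 0.08 ± 0.19 (adjusted p = 0.853) in TTF-derived ieSCs. Nanog missed the threshold in this fit (-0.79 ± 0.27, adjusted p = 0.0521) and passed it in the filtered fit, and was lower in MEF-derived ieSCs (-1.31 ± 0.29, adjusted p = 0.00668). The other Nanog feature gave -0.01 in the mean of the ieSC groups against MEF. With the arrays of each name averaged, none of the endothelial, muscle and pluripotency markers above the filter was called.

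Array medians ranged from 5.759 to 5.782 and 40th percentiles from 4.988 to 5.023. The deposited values were already normalised, so this likeness may come from that step and is no check of it. Arrays of 1 name correlated at 0.9896 to 0.9966 over all features and MEF arrays with ieSC arrays at 0.926 to 0.9408. Features called in the mean of the ieSC groups against MEF were higher for 55.2% and lower for 44.8%. With arrays scaled to their 1000 brightest features the split was 44.3% to 55.7%, and the median of the tested features moved by 0.13, far less than any fall of a cluster feature. With 2 MEF arrays of 1 name, the spread between MEF cultures was not measured, and the test takes it from the ieSC names.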

How the data were processed

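Per the labels' protocols, total RNA of 10 samples (2 MEF, 4 MEF-derived ieSC, 4 TTF-derived ieSC) received Cy3 by the Agilent procedure. The authors deposited a table of normalised values for 62976 features, with no missing value. The deposited values were taken as log2, because they range from 0.288 to 19.02 with array medians near 5.8, and the table does not state the base. Limma, without a version, is the tool in the submitters' processing notes. The background correction, the normalisation and any detection flag are not given in the sources used here.

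Gene symbols came from the platform annotation: 31465 features had 1 symbol, 0 had several and 31511 had none. Symbols were updated through RefSeq (GRCm38.p6), by accession for 29036 features and by a unique synonym for 349, and 3282 received a newer symbol. Promoter and miRNA sequences were taken from RefSeq, GRCm38.p6.

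Features above the 40th percentile of their array on at least 2 arrays were tested (42617). A limma 3.58.1 fit (R 4.3.3, statmod 1.5.0) with 3 group means used lmFit and eBayes, with the source name of the arrays as a random block (duplicateCorrelation, correlation 0.468). Tests were two-sided, with Benjamini-Hochberg adjustment and a threshold of 0.05. Intervals are 95%. The median standard error was 0.177 for the ieSC groups against MEF, so the number of arrays limits the precision. The fit was tested on simulated data. Counts over members and lists came from a fit of the same design over all features without the filter (correlation 0.296). Of features with the same gene, the one with the highest mean stood for the gene in lists and gene order.

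The members and lists were chosen with earlier results of these data known. Named were all member features, all features between Dlk1 and Dio3, up to 3 flanking genes per side and up to 3 genes per list with the smallest p, and the 5 genes most like Meg3 and Dlk1. The alternatives were independent arrays, averaged names, no filter or a 60th percentile filter, floored values, 1 feature per gene, other scalings, a variance trend, a block for the name number, and each array or name left out. The same settings were applied to the other named genes after their values were seen.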

Additional observations from a re-analysis of the deposited data

Results flagged for a closer look

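Each ieSC group of 4 arrays was searched for an array apart from the other 3, over the 8 cluster features and 3110009F21Rik. Of 18 such combinations 2 showed one, where chance gives about 1 in 20. Meg3 A was at 3.55 on TTF-derived ieSC array 2a, and its gap to the next array was 0.848 of the group's range. Without that array the difference of Meg3 A between TTF-derived and MEF-derived ieSCs was 0.04, in place of -0.18, and was not called either way. Rtl1 was at 5.07 on MEF-derived ieSC array 2a, with a gap of 0.894 of the range, the only Rtl1 value above the 40th percentile of its array.

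3110009F21Rik differed between the kinds of ieSC by the test of that difference, by -1.60 on the log2 scale. With averaged arrays this call was lost (adjusted p = 0.188). Against MEF it had 3.33 ± 0.59 (adjusted p = 0.00117) in MEF-derived and 1.73 ± 0.59 (adjusted p = 0.0405) in TTF-derived ieSCs. The TTF-derived value was not called in the fit of all features (adjusted p = 0.0533) or with floored values (0.24, adjusted p = 0.771). In each group the arrays of number 1 were the higher ones.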

How the results depend on the processing

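Under every alternative that could be fitted for them, the 7 features of Meg3, Mirg, Dlk1 and Dio3 were called lower in all 3 comparisons with MEF. Over these alternatives Meg3 A ranged from -13.16 to -12.32 in the mean of the ieSC groups against MEF, Mirg from -8.84 to -8.63, Dlk1 A from -10.79 to -10.48 and Dio3 from -4.62 to -4.44, with a largest adjusted p of 5.09e-04 among these 4. Meg3 B ranged from -11.76 to -9.95, Meg3 C from -7.15 to -5.74 and Dlk1 B from -8.81 to -7.64, with a largest adjusted p of 6.48e-04 among these 3, and the smallest falls were those with floored values. Rtl1 did not pass the filter and has the unfiltered value alone. Begain ranged from -7.59 to -7.04. No named value that passed the test changed sign.

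Counts of features called over the whole array moved more. The mean of the ieSC groups against MEF called 19005 features, MEF-derived ieSCs against MEF 19724, TTF-derived ieSCs against MEF 17255, and TTF-derived against MEF-derived ieSCs 14414. With the arrays of each name averaged, the counts were 12538 for the mean of the ieSC groups, 10417 for TTF-derived ieSCs against MEF and 5276 between the kinds of ieSC. With 1 feature per gene, which tests fewer features by construction, the 4 counts were, in the same order, 8248, 8524, 7512 and 5998.

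The labels do not say that a name number marks a shared batch. With the number 1 or 2 as a replicate block, TTF-derived against MEF-derived ieSCs called 19629 features, and Dio3, at -0.27, was then called (adjusted p = 0.0469), as it was with independent arrays (adjusted p = 0.0262). Meg3 B was called without the TTF-derived ieSCs of number 1 (-0.63, adjusted p = 0.0447). The cause was not tested.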
